A study of Mus musculus with 9 samples.

Results

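The genes described here carry sulfate and dicarboxylates across the membranes of kidney tubule cells or turn sulfate into its activated form. There are 7 of them, Slc13a1, Slc13a2, Slc13a3, Slc26a1, Slc26a6, Papss1 and Papss2, among 17963 genes in the deposited table. The set was chosen by the counts of Slc13a1 in these libraries, which stood high in mice given cisplatin with the decoction and not in the other groups, so the values of Slc13a1 are a description and carry no test. The other genes joined it by function, with earlier results of these data known. Each member was found by its Entrez gene number, and the expected read counts of its transcripts were summed. All 7 passed the filter on low counts.

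RNA was sequenced from kidney cortex of wild-type mice on day 4, with 3 libraries in each of 3 groups. The YSJZD group had cisplatin into the peritoneum and Yishen Jiangzhuo decoction, a herbal medicine, into the stomach. The cisplatin group had the same drug, a platinum compound against tumours that damages kidney tubules, with water into the stomach. The control group had saline and water by the same routes. The sources used here do not give the mouse strain, age or doses, nor say that each sample came from its own mouse, and the spread that the p-values measure may therefore be technical. Library totals lay between 15029286 and 16690482 expected counts, and 13954 genes were tested. Cisplatin replicate 3 stood apart from the other 8 libraries on the third principal component, which held 5.4% of the variance. All 20 proximal tubule markers were detected in each group.

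Sulfate is filtered in the glomerulus and largely taken back by the proximal tubule. SLC13A1 carries it with sodium through the brush border, and SLC26A1 lets it leave on the blood side in exchange for other anions. SLC13A2 in the brush border and SLC13A3 on the blood side carry citrate, succinate and related dicarboxylates with sodium, and the dicarboxylates taken up on the blood side feed the organic anion exchangers. SLC26A6 exchanges chloride for oxalate, formate and other anions in the brush border. Inside the cell PAPSS1 and PAPSS2 join sulfate to ATP and phosphorylate the product, which gives PAPS, the sulfate donor of all sulfotransferases.

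Cisplatin kidneys had less RNA of most of these genes than control kidneys, and YSJZD kidneys had more of them than cisplatin kidneys. Slc13a1 took another course, since its cisplatin and control libraries overlapped and it stood highest in YSJZD kidneys. Papss1 stayed far below control in YSJZD kidneys. The plot of values by library shows each gene on its own scale of CPM, counts scaled to library depth and composition.

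**Figure D1:**
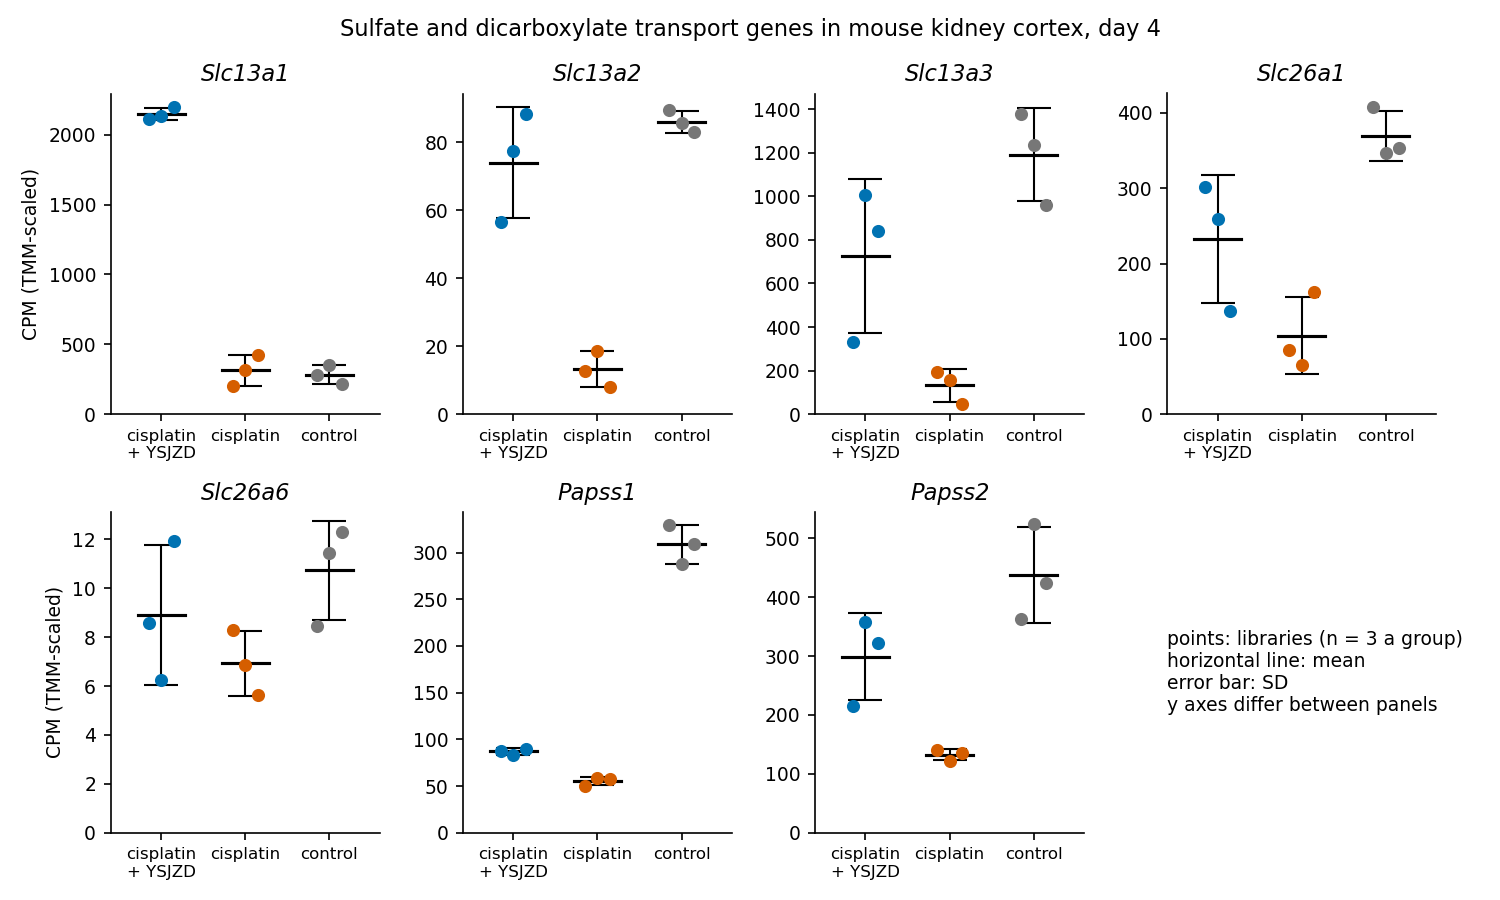
CPM of the 7 genes in each library (points) with the mean (line) and SD (bar) of the 3 libraries of a group, on linear axes that differ between panels. Slc13a1 lies between 2112 and 2194 CPM in YSJZD kidneys and at 423 CPM or less in the 6 other libraries, while Papss1 lies between 83.0 and 90.2 CPM in YSJZD kidneys and at 288 CPM or more in control kidneys.

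Slc13a1 (Entrez gene 55961), the sodium sulfate cotransporter of the brush border, had 2112, 2135 and 2194 CPM in YSJZD kidneys. It had 199, 319 and 423 CPM in cisplatin kidneys, and 281, 352 and 219.5 CPM in control kidneys. Every YSJZD library lay above every other library, and the cisplatin and control libraries overlapped. The log2 fold change was 2.78 ± 0.28 (SE of the fit) in YSJZD against cisplatin, which is 6.85-fold, and 2.92 ± 0.28 in YSJZD against control, which is 7.55-fold. In cisplatin against control it was 0.14 ± 0.26. The gene was chosen for this pattern, so the SEs describe the fit and test nothing. Among 13655 genes that averaged 1 CPM or more in some group, Slc13a1 ranked 3rd by the smaller of its 2 log2 fold changes of YSJZD over the other groups, and 8 genes had 2 or more on that measure. A high rank follows from the choice of the gene, since the measure is the pattern it was chosen for. The record NM_019481.2, which the GENCODE annotation of GRCm38 places on chromosome 6 from 24088283 to 24168092 on the minus strand with 15 exons, held between 99.655% and 100% of the Slc13a1 counts in every library.

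The genes whose pattern over the 9 libraries was most like that of Slc13a1 were sought among 13654 others, as the smallest root mean square difference between profiles of log2 CPM centred on their own mean. Tfr2, the second transferrin receptor, was nearest at 0.409 log2 units and had a mean of 2.72 CPM in YSJZD, 0.257 CPM in cisplatin and 0.258 CPM in control kidneys. Gas6, a ligand of the TAM receptor kinases, came next at 0.587 and had 1019 CPM in YSJZD, 314 CPM in cisplatin and 282 CPM in control kidneys. Ciita at 0.610, which switches on MHC class II genes, Zfp648 at 0.623 and the serum amyloid gene Saa4 at 0.638 followed. These genes were chosen for their likeness, and 4 of the 5 had a mean under 15 CPM in every group, where a library's value rests on few counts.

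Per length, the order of the genes differed between groups. In FPKM, fragments scaled to transcript length and to library depth, YSJZD kidneys had 949 ± 38.7 for Slc13a1, 244 ± 118 for Slc13a3, 89.2 ± 22.0 for Papss2, 67.8 ± 24.6 for Slc26a1, 43.4 ± 10.2 for Slc13a2, 36.8 ± 2.34 for Papss1 and 3.11 ± 1.07 for Slc26a6 (SD, n = 3). Cisplatin kidneys had 141 ± 43.6 for Slc13a1, 47.1 ± 27.9 for Slc13a3, 40.7 ± 3.59 for Papss2, 31.1 ± 13.6 for Slc26a1, 24.1 ± 1.73 for Papss1, 8.16 ± 3.26 for Slc13a2 and 2.49 ± 0.600 for Slc26a6. In control kidneys Slc13a3 came first with 350.3 ± 44.4, followed by Papss2 with 115 ± 24.4, Papss1 with 115 ± 6.80, Slc13a1 with 110.2 ± 24.4, Slc26a1 with 92.2 ± 5.27, Slc13a2 with 42.1 ± 0.838 and Slc26a6 with 3.29 ± 0.791. Neighbours in these orders that differed by less than the larger of their SDs were Papss2, Slc26a1, Slc13a2 and Papss1 in YSJZD kidneys, Slc13a3, Papss2, Slc26a1 and Papss1 in cisplatin kidneys, and Papss2, Papss1, Slc13a1 and Slc26a1 in control kidneys. Slc13a1 ranked between 58 and 66 among all genes by FPKM in YSJZD libraries, between 482 and 1000 in cisplatin libraries and between 681 and 1001 in control libraries.

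**Figure D2:**
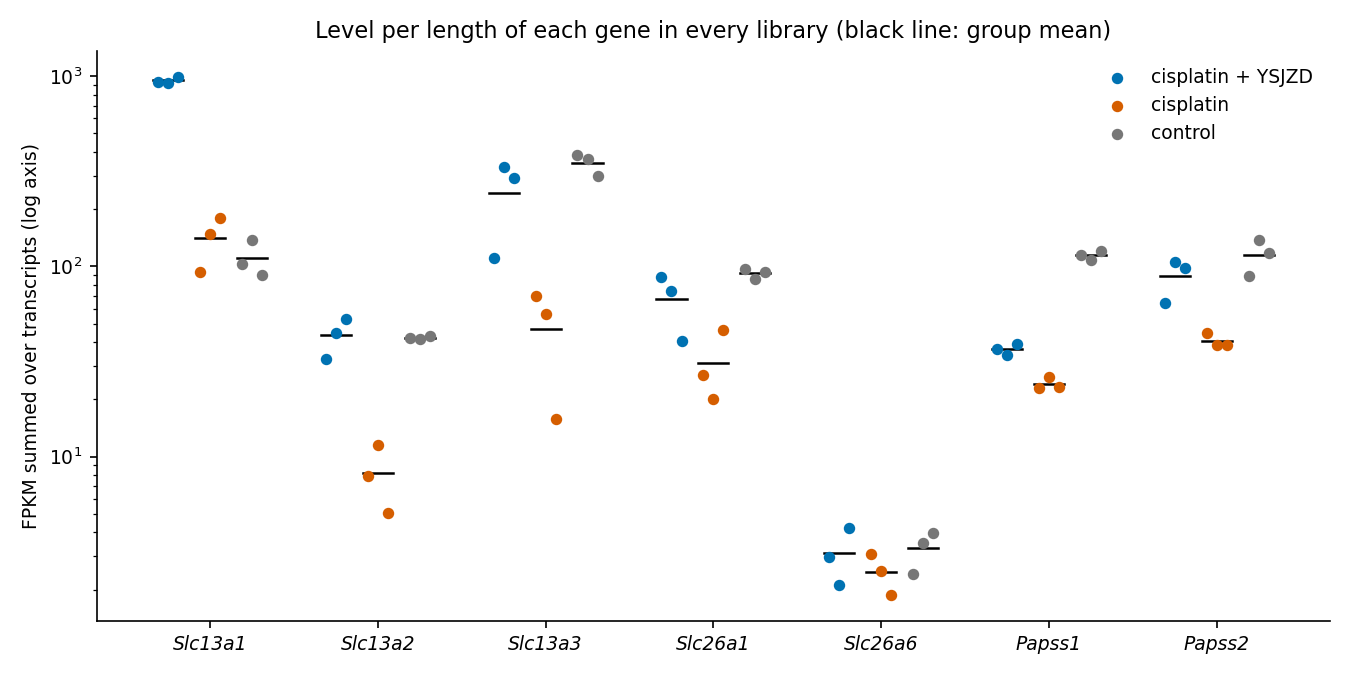
FPKM of each gene on a log axis, with 1 point a library and a black line at the group mean. Slc13a1 averages 949 FPKM in YSJZD kidneys and 141 and 110.2 FPKM in cisplatin and control kidneys, and Slc13a3 leads in control kidneys with 350.3 FPKM.

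The ratio of Slc13a1 to Slc13a3 in FPKM, brush border sulfate carrier to blood-side dicarboxylate carrier, was 8.40, 2.79 and 3.42 in YSJZD libraries. It was 1.35, 2.66 and 11.3 in cisplatin libraries and 0.267, 0.375 and 0.302 in control libraries. Every control ratio was below 1 and every other ratio above it. Slc13a1 was chosen for its high values in YSJZD libraries, so the YSJZD ratios follow in part from that choice. In cisplatin against control the log2 fold change was 0.14 for Slc13a1 and -3.16 for Slc13a3.

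In cisplatin against control, 5 of the 6 members other than Slc13a1 fell, none rose and 1 was not called, at an adjusted p under 0.05 in edgeR's quasi-likelihood test. Over all genes 26.0% were called lower and 28.6% higher, 54.6% in all. The median log2 fold change of the 6 was -2.15, against 0.04 over all genes tested. With library totals in place of the composition factor, the median over all genes stood at 0.27 and 66.1% of the called genes were higher, against 52.4% with the factor, and the same 5 members remained lower. In YSJZD against cisplatin, 5 of the 6 were higher, none was lower and 1 was not called, where 17.4% of all genes were called higher and 18.0% lower, 35.4% in all. The median of the 6 was 1.16, against -0.01 over all genes.

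In YSJZD against control, 1 of the 6 was lower, none was higher and 5 were not called, with 9.37% of all genes called lower and 9.93% higher, 19.3% in all. The median of the 6 was -0.61, against 0.01 over all genes. With library totals the median over all genes was 0.20 and 75.4% of called genes were higher, against 51.4% with the factor. Without cisplatin replicate 3 the members called numbered 5, 5 and 1 in the 3 comparisons, as with it. The 3 comparisons share their libraries in pairs, so a low cisplatin value enters both the first and the second. The plot of fold changes sets them side by side.

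**Figure D3:**
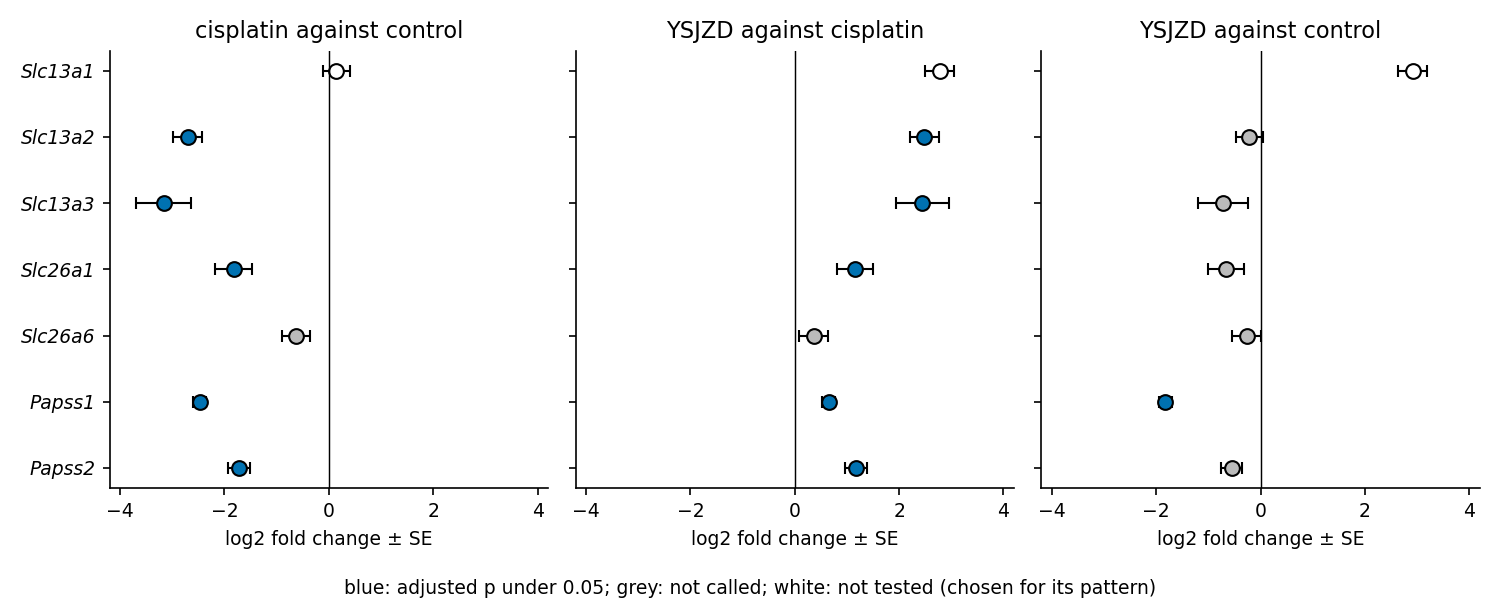
Log2 fold change of each gene with the SE of the fit (bar) in the 3 comparisons, filled blue where the adjusted p is under 0.05, grey where it is not and white for Slc13a1, which was not tested. Papss1 stands at -2.48, 0.65 and -1.83 from left to right, and Slc13a1 at 0.14, 2.78 and 2.92.

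The other gene of sulfate transport, Slc26a1 (Entrez gene 231583), had 301, 258 and 138 CPM in YSJZD kidneys, 85.7, 65.8 and 162 CPM in cisplatin kidneys, and 408, 347 and 353 CPM in control kidneys. Control libraries lay above all others, while cisplatin replicate 3 lay above YSJZD replicate 3. It fell by 1.82 ± 0.35 on the log2 scale in cisplatin against control (edgeR, adjusted p = 0.00151). In YSJZD against cisplatin it was 1.15 ± 0.35 higher (edgeR, adjusted p = 0.0263), a call that was lost without YSJZD replicate 1 (0.0833) or 2 (0.0745), without cisplatin replicate 1 (0.0851) or 2 (0.0794), with the 6 compared libraries alone (0.0597) and with curated RefSeq records alone (0.108). The difference of YSJZD from control, -0.67 ± 0.34, did not pass (edgeR, adjusted p = 0.208), although all YSJZD libraries lay below all control libraries.

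Slc26a1 lies on the minus strand of chromosome 5, from 108669878 to 108675569 in GRCm38, within Idua, which is read from the other strand and shares 3.7% of the exon bases of the main Slc26a1 record. Idua itself had mean counts of 177 in YSJZD, 153.7 in cisplatin and 121.7 in control kidneys, and whether reads were counted by strand is not given in the sources used here. Of the 8 Slc26a1 records, NM_174870.4 held 65.7% to 88.1% of the counts in YSJZD libraries, 70.9% to 92.3% in the cisplatin group and 52.9% to 58.3% in the control group. The predicted record XM_006534911.1 held 1.18% to 5.45% of the counts in YSJZD libraries, 0% to 2.67% in the cisplatin group and 11.4% to 15.7% in the control group. NM_174870.4 was called in no comparison. It stood at -1.17 ± 0.48 in cisplatin against control (edgeR, adjusted p = 0.132) and -0.10 ± 0.47 in YSJZD against control (0.975). XM_006534911.1 fell by 5.33 ± 1.02 in cisplatin against control (edgeR, adjusted p = 0.0077), where 20.6% of transcripts were called. Its difference from the rest of Slc26a1 was -3.53 log2 units (edgeR's diffSpliceDGE, adjusted p = 0.0416), where 1.27% of 29457 transcripts were called. No other Slc26a1 record was called on this measure. XM_006534911.1 had 0 to 42.1 counts in cisplatin libraries, and its calls were not refitted with single libraries left out. The division of reads among the 8 records is an estimate whose error the fit does not see.

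Slc13a2 (Entrez gene 20500), the sodium dicarboxylate and citrate carrier of the brush border, had 56.5, 77.4 and 88.4 CPM in YSJZD kidneys. It had 12.7, 18.7 and 8.13 CPM in cisplatin kidneys, and 89.4, 85.8 and 83.0 CPM in control kidneys. Cisplatin libraries lay below all others, and YSJZD and control libraries overlapped. It fell by 2.70 ± 0.28 on the log2 scale in cisplatin against control (edgeR, adjusted p = 2.83e-05) and was 2.49 ± 0.27 higher in YSJZD against cisplatin (edgeR, adjusted p = 0.00019). In YSJZD against control the log2 fold change was -0.22 ± 0.26, with a 95% interval of the fit from -0.78 to 0.35 (edgeR, adjusted p = 0.604).

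Slc13a3 (Entrez gene 114644), the dicarboxylate carrier of the blood side, had 329.7, 1006 and 840.4 CPM in YSJZD kidneys. It had 193, 157 and 49.0 CPM in cisplatin kidneys, and 1379, 1233 and 960.4 CPM in control kidneys. YSJZD replicate 1 lay nearer to the cisplatin libraries than to the other YSJZD libraries, and cisplatin replicate 3 was lowest. It fell by 3.16 ± 0.52 in cisplatin against control (edgeR, adjusted p = 0.000588) and was 2.45 ± 0.51 higher in YSJZD against cisplatin (edgeR, adjusted p = 0.00495), on the log2 scale. The change in YSJZD against control was -0.72 ± 0.48, with an interval from -1.79 to 0.36 (edgeR, adjusted p = 0.344). By the same measure of likeness, Hlf, a PAR bZIP transcription factor, was nearest to Slc13a3 at 0.341 log2 units, with 91.4 CPM in YSJZD, 14.9 CPM in cisplatin and 193 CPM in control kidneys.

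Slc26a6 (Entrez gene 171429), the exchanger for oxalate and chloride, was the lowest of the 7 genes. It had 8.58, 6.23 and 11.9 CPM in YSJZD kidneys, 8.30, 6.85 and 5.65 CPM in cisplatin kidneys, and 8.44, 11.4 and 12.3 CPM in control kidneys. All cisplatin libraries lay below all control libraries, and YSJZD libraries overlapped both. No comparison was called. The log2 fold change was -0.63 ± 0.27 in cisplatin against control (interval -1.24 to -0.02, edgeR adjusted p = 0.0749), 0.36 ± 0.27 in YSJZD against cisplatin (interval -0.25 to 0.97, adjusted p = 0.331) and -0.27 ± 0.27 in YSJZD against control (adjusted p = 0.541).

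Papss1 (Entrez gene 23971), a PAPS synthase, had 87.9, 83.0 and 90.2 CPM in YSJZD kidneys. It had 50.5, 58.4 and 57.4 CPM in cisplatin kidneys, and 329, 288 and 309 CPM in control kidneys. The 3 groups did not overlap. Papss1 fell by 2.48 ± 0.13 on the log2 scale in cisplatin against control (edgeR, adjusted p = 1.44e-06). It was 0.65 ± 0.12 higher in YSJZD against cisplatin (edgeR, adjusted p = 0.0027), and 1.83 ± 0.12 lower in YSJZD against control (edgeR, adjusted p = 3.89e-05), which is 3.55-fold. It was the only member called in that comparison, and it kept its call in all 3 comparisons when any 1 library was left out. Ppt2, a lysosomal thioesterase, was nearest to it in pattern, at 0.0997 log2 units, with 88.6 CPM in YSJZD, 49.3 CPM in cisplatin and 297 CPM in control kidneys.

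Papss2 (Entrez gene 23972), the other PAPS synthase, had 216, 359 and 323 CPM in YSJZD kidneys, 141, 123 and 135 CPM in cisplatin kidneys, and 363, 525 and 425 CPM in control kidneys. The groups did not overlap, although the highest YSJZD and the lowest control library lay close together. It fell by 1.72 ± 0.21 in cisplatin against control (edgeR, adjusted p = 8.04e-05) and was 1.17 ± 0.20 higher in YSJZD against cisplatin (edgeR, adjusted p = 0.00211), on the log2 scale. In YSJZD against control it was -0.55 ± 0.20, which did not pass (edgeR, adjusted p = 0.0863) and passed with DESeq2 (-0.57, adjusted p = 0.0401). The ratio of Papss1 to Papss2 in FPKM was 0.577, 0.328 and 0.397 in YSJZD libraries, 0.509, 0.675 and 0.604 in cisplatin libraries, and 1.29, 0.780 and 1.03 in control libraries, so that every control ratio lay above every other ratio.

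The 4 Papss2 records in the table differed in their values over the groups. The RefSeq promoter table, in GRCm38.p6, gives the gene 2 start sites on the plus strand of chromosome 19, at 32595715 and 32620005. The downstream start at 32620005 is the start of NM_011864.3 in the GENCODE annotation of the same build, and the upstream start lies 75 bases before that of NM_001201470.1. The stretches just before both starts are shown because the 2 records had different values in cisplatin kidneys. CG pairs are in capitals.
Papss2 upstream start, chr19:32595465-32595714, plus strand: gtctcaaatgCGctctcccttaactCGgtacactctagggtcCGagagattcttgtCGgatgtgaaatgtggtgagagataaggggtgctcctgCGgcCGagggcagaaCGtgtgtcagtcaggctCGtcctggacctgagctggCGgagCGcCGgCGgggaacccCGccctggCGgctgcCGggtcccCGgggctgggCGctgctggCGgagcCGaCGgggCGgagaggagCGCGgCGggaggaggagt
Papss2 downstream start, chr19:32619755-32620004, plus strand: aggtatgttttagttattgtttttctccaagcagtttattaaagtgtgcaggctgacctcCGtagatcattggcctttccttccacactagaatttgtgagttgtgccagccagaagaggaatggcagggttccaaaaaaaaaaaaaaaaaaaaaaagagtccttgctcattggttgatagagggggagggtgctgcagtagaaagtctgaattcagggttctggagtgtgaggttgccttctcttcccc
The upstream stretch has 24 CG pairs and 67.6% G and C, more than 87.1% of the 32851 promoters of the table. The downstream stretch has 1 CG pair and 43.2% G and C, more than 19.0% of them. The medians over the table are 6 CG pairs and 52.4%.

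The first exons give the 2 records opening coding stretches that differ after their first few bases. These have 27 bases in NM_001201470.1 and 33 in NM_011864.3, which also has 15 inserted coding bases. Of the first 60 coding bases, the opening stretch of each record is in capitals, as are the inserted bases in the later stretch.
NM_001201470.1, coding bases 1 to 60: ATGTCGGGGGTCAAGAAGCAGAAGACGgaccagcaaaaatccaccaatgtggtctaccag
NM_011864.3, coding bases 1 to 60: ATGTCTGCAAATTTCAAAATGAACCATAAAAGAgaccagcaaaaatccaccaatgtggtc
NM_001201470.1, coding bases 843 to 882: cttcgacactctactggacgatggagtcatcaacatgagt
NM_011864.3, coding bases 849 to 903: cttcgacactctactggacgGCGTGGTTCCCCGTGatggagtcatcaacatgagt
The coding sequences shown are those of the GENCODE transcripts matched to the records, with 2047 bases for NM_001201470.1 and 3635 for NM_011864.3. These transcripts share a run of 1127 bases, and the RefSeq records that were counted may share more. In YSJZD replicate 1 NM_001201470.1 had 1894 counts and 33.0 FPKM, and NM_011864.3 had 1245 counts and 21.5 FPKM, as for records of similar length. Many reads could therefore come from either record. The division of reads by RSEM, the program behind the counts, is an estimate whose error the fit does not see.

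NM_011864.3, the downstream record, had 1245, 1726 and 2066 expected counts in YSJZD libraries, 76.0, 224 and 174 in cisplatin libraries, and 2962, 4012 and 3296 in control libraries. The cisplatin libraries lay far below all others, the YSJZD libraries lay below all control libraries, and its share of the Papss2 counts was 31.6% to 38.0% in YSJZD libraries, 2.93% to 10.4% in the cisplatin group and 51.4% to 59.3% in the control group. It fell by 4.69 ± 0.44 on the log2 scale in cisplatin against control (edgeR on 34931 transcripts, adjusted p = 0.000333), where 20.6% of transcripts were called. It was 3.46 ± 0.42 higher in YSJZD against cisplatin (edgeR, adjusted p = 0.00376), where 7.09% were called. It was -1.23 ± 0.38 in YSJZD against control (edgeR, adjusted p = 0.146), with 3.56% of transcripts called, and was called there without cisplatin replicate 1 (adjusted p = 0.0415).

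NM_001201470.1, the upstream record, had 1894, 2055 and 2269 expected counts in YSJZD libraries, 1646, 1338 and 1581 in cisplatin libraries, and 1074, 2019.6 and 1998 in control libraries. Cisplatin and control libraries overlapped here, since control replicate 1 was lowest of all 9. The log2 fold change was -0.42 ± 0.23 in cisplatin against control (edgeR, adjusted p = 0.245), 0.51 ± 0.23 in YSJZD against cisplatin (adjusted p = 0.241) and 0.09 ± 0.23 in YSJZD against control (adjusted p = 0.94). Without control replicate 1 the first of these was -0.66 and was called (adjusted p = 0.0308).

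The test of a transcript against the rest of its gene gave NM_011864.3 a difference of -2.99 log2 units from the rest of Papss2 in cisplatin against control (edgeR's diffSpliceDGE, adjusted p = 0.0323), where 1.27% of 29457 transcripts were called. Leaving out 1 library gave differences from -3.36 to -2.59, and the call was lost in 8 of 9 such fits, with adjusted p from 0.0503 without YSJZD replicate 2 to 0.130 without control replicate 1, and held without cisplatin replicate 2 (0.00114). In YSJZD against cisplatin the difference was 2.31 and not called (adjusted p = 0.241), where 0.282% of transcripts were, and it was called without cisplatin replicate 2 (adjusted p = 0.0170). In YSJZD against control it was -0.68 (adjusted p = 1), where 0.153% were called. Among the predicted Papss2 records, XM_006527065.2 had 307 to 1400.1 counts in YSJZD libraries. It was listed at 0 in cisplatin replicates 1 and 3 with 144 counts in replicate 2, and had 605 to 1029.8 counts in control libraries. The other predicted record, XM_006527064.3, was highest after cisplatin alone, where replicates 1 to 3 held 876, 443 and 416 counts. Control kidneys held 351, 139 and 207 of its counts, and YSJZD kidneys 252, 286 and 229. Neither predicted record was called in cisplatin against control. The log2 fold change was -4.41 for XM_006527065.2 (edgeR, adjusted p = 0.0801) and 1.02 for XM_006527064.3 (adjusted p = 0.107).

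**Figure D4:**
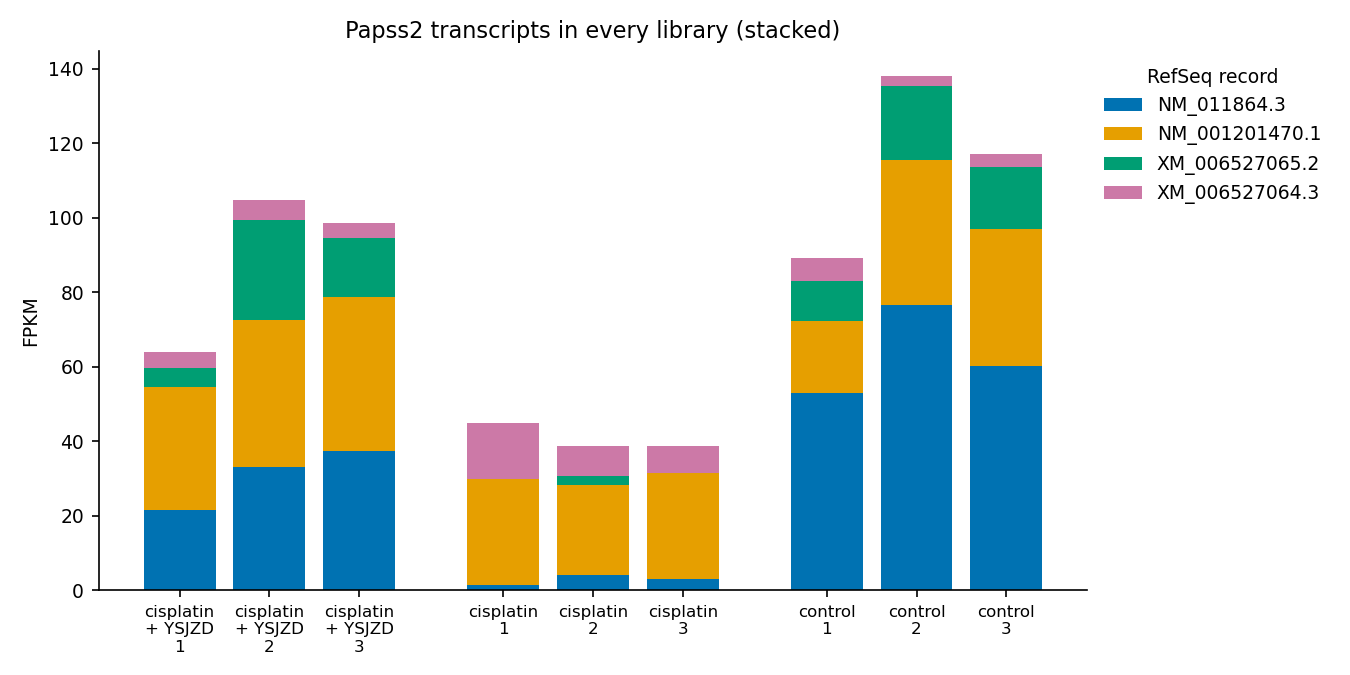
FPKM of the 4 Papss2 records in each library, stacked. NM_011864.3, at the bottom, holds 31.6% to 38.0% of the Papss2 counts in YSJZD libraries, 2.93% to 10.4% in the cisplatin group and 51.4% to 59.3% in the control group.

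Upstream stretches of the same length were at hand for 6 of the 7 genes, 9 in all, and not for Slc13a1. They were searched on both strands for TATAAA, found in 12.4% of all promoters of the table, for GTTAA, a part of the site of the tubule factor HNF1 and found in 21.7%, and for TGANTCA, the site of AP-1 and found in 6.75%. None of these motifs contains another. Slc13a2 had 1 TATAAA and 2 GTTAA, Slc26a6 had 3 GTTAA, and the upstream stretch of Papss2 had 1 GTTAA. Of the 2 stretches of Slc26a1, one had 1 TATAAA and the other 1 GTTAA and 1 TGANTCA. The stretches of Slc13a3 and Papss1 and the downstream one of Papss2 held none of the 3. A match in letters does not show a bound site.

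Markers of the proximal tubule, where textbook accounts place most of these carriers, moved with most of the members. Summed over 20 markers, they had 21272 to 41789 CPM in YSJZD kidneys, 5783 to 8448 CPM in cisplatin kidneys and 79975 to 100865 CPM in control kidneys, with none at 0 in any group. In cisplatin against control 18 of 20 fell and none rose, in YSJZD against cisplatin all 20 were higher (19 without cisplatin replicate 3), and in YSJZD against control 14 were lower and none higher. Their median log2 fold changes were -3.25, 1.92 and -1.20 in that order. In bulk tissue fewer cells of a type and less RNA per cell cannot be told apart, and the part of either in the members' values was not tested.

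Markers of injury and of white blood cells moved the other way. The 12 tubular injury markers, such as Havcr1 and Lcn2, summed to 12560 to 17502 CPM in YSJZD, 16092 to 37593 CPM in cisplatin and 649 to 676 CPM in control kidneys. The 10 macrophage markers summed to 109.8 to 160.1 CPM in YSJZD, 391 to 1984 CPM in cisplatin and 111 to 161 CPM in control kidneys. The 8 neutrophil markers summed to 3.91 to 9.17 CPM in YSJZD, 40.7 to 121 CPM in cisplatin and 1.59 to 2.04 CPM in control kidneys. All 12 injury markers rose in cisplatin against control and 9 were lower in YSJZD against cisplatin, while 10 were higher in YSJZD against control. Without cisplatin replicate 3 the last 2 counts were 8 and 11. In the same order 8, 8 and 2 of 10 macrophage markers and 7, 7 and 3 of 7 tested neutrophil markers were called in these directions. None of these markers was at 0 in all libraries of a group, and their part in the members' values was not tested. Of 8 thick ascending limb markers 7 fell in cisplatin against control and 7 were higher in YSJZD against cisplatin, while of 8 collecting duct markers 1 rose and 2 fell in cisplatin against control (1 and 1 without cisplatin replicate 3).

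The genes around the members were taken as lists and described by counts. Those counts stand against 28.6% of all genes higher and 26.0% lower in cisplatin against control, 17.4% higher and 18.0% lower in YSJZD against cisplatin, and 9.93% higher and 9.37% lower in YSJZD against control. Of 8 tested sulfate and anion exchangers other than the members, 3 fell and none rose in cisplatin against control, 3 were higher and none lower in YSJZD against cisplatin, and 1 was lower in YSJZD against control. Their median log2 fold changes in these comparisons were -1.04, 0.57 and -0.97. The 3 were Slc4a1, Slc13a4 and Slc26a7 in both of the first comparisons. Slc4a1, the anion exchanger of red cells and acid-secreting collecting duct cells, had 15.7 ± 4.93 CPM in YSJZD, 1.85 ± 0.342 CPM in cisplatin and 50.3 ± 23.3 CPM in control kidneys. Slc13a4, another sodium sulfate carrier, had 4.90 ± 1.71 CPM in YSJZD, 1.42 ± 0.204 CPM in cisplatin and 8.13 ± 3.07 CPM in control kidneys (SD, n = 3). Slc26a7 had 2.34 ± 1.42 CPM in YSJZD, 0.695 ± 0.0847 CPM in cisplatin and 5.13 ± 1.11 CPM in control kidneys, and its call in YSJZD against cisplatin (edgeR, adjusted p = 0.0269) was lost in 5 of the 9 fits that left out 1 library (0.0527 to 0.0958), with the 6 compared libraries alone (0.0577), with limma-voom (0.111) and with limma on FPKM (0.0973). Slc26a2, the sulfate carrier known from cartilage, had 2.92 ± 0.766 CPM in YSJZD, 4.44 ± 1.56 CPM in cisplatin and 6.01 ± 2.59 CPM in control kidneys. edgeR called it in no comparison, and DESeq2 called it lower in YSJZD against control (-1.06, adjusted p = 0.0438).

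Of 6 tested genes for the use and recycling of PAPS, 4 fell and 1 rose in cisplatin against control, 1 was higher in YSJZD against cisplatin, and 3 were lower in YSJZD against control, with medians of -0.66, 0.05 and -0.52 on the log2 scale. Without cisplatin replicate 3, 4 fell and none rose in cisplatin against control, 2 were higher and 1 lower in YSJZD against cisplatin, and 2 were lower in YSJZD against control. Bpnt1, the phosphatase that clears the PAP left by sulfotransferases, was the one higher in YSJZD, with 111 ± 14.6 CPM in YSJZD, 62.9 ± 7.11 CPM in cisplatin and 251 ± 4.13 CPM in control kidneys. It was 0.82 ± 0.14 higher on the log2 scale in YSJZD against cisplatin (edgeR, adjusted p = 0.00176) and 1.17 ± 0.14 lower in YSJZD against control (edgeR, adjusted p = 0.000491). Fhit, a hydrolase of dinucleotides and of the intermediate APS, had 0.0219 ± 0.0379 CPM in YSJZD, 0.150 ± 0.0796 CPM in cisplatin and 12.6 ± 1.64 CPM in control kidneys. Slc35b2, which carries PAPS into the Golgi, had 52.3 ± 7.15 CPM in YSJZD, 45.3 ± 7.87 CPM in cisplatin and 57.2 ± 4.83 CPM in control kidneys. It was called in no comparison with all libraries, and as lower in cisplatin against control without cisplatin replicate 3 (edgeR, -0.47, adjusted p = 0.0284).

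Sulfotransferases pass the sulfate of PAPS to small molecules in the cytosol and to sugar chains and proteins in the Golgi. Of 8 tested cytosolic ones, 4 rose and 1 fell in cisplatin against control, 2 were higher and 1 lower in YSJZD against cisplatin, and 1 was higher in YSJZD against control, with log2 medians of 1.02, -0.27 and 0.55. Sult1c2, which sulfates phenols, was the only gene of these 8 to fall in cisplatin against control (edgeR, adjusted p = 2.66e-05). It had 128 ± 33.0 CPM in YSJZD, 31.9 ± 5.79 CPM in cisplatin and 166 ± 38.2 CPM in control kidneys. Sult1e1 was among those that rose. It had 0.141 ± 0.0875 CPM in YSJZD, 5.87 ± 9.06 CPM in cisplatin and 0.0243 ± 0.0420 CPM in control kidneys. Of 25 tested Golgi ones, 7 rose and 7 fell in cisplatin against control, 3 were higher and 4 lower in YSJZD against cisplatin, and 2 were lower in YSJZD against control, with log2 medians of 0.02, -0.20 and -0.14. The Golgi shares in cisplatin against control lay close to those over all genes. Without cisplatin replicate 3 the Golgi counts were 4 higher and 7 lower in YSJZD against cisplatin. Chst7, which sulfates chondroitin, had 13.5 ± 1.00 CPM in YSJZD, 3.88 ± 0.104 CPM in cisplatin and 44.6 ± 4.93 CPM in control kidneys. Chst1, the keratan sulfotransferase, went the other way with 3.61 ± 0.824 CPM in YSJZD, 9.13 ± 2.37 CPM in cisplatin and 2.79 ± 0.534 CPM in control kidneys. Of 13 sulfatases and their activators, 8 fell and 3 rose in cisplatin against control, 5 were higher and 2 lower in YSJZD against cisplatin, and 2 were higher and 4 lower in YSJZD against control, with log2 medians of -0.50, 0.22 and -0.27. Arsb and Ids, lysosomal sulfatases, were among those higher in YSJZD against cisplatin, and Sulf1, which acts on heparan sulfate outside the cell, was among those lower. With curated RefSeq records alone, Ids (edgeR, adjusted p = 0.408), Sulf1 (0.0537) and Chst1 (0.368) were not called in YSJZD against cisplatin.

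A list of 12 tested genes covered cysteine and sulfide metabolism around the making of sulfate, and not a single route. In cisplatin against control 7 fell and none rose. YSJZD kidneys had 7 higher and none lower against cisplatin kidneys, and 3 lower against control kidneys. The log2 medians were -1.40, 1.38 and -0.36 in that order. Suox, sulfite oxidase, whose product is sulfate, had 76.5 ± 14.9 CPM in YSJZD, 26.9 ± 1.98 CPM in cisplatin and 103 ± 9.71 CPM in control kidneys. It fell by 1.94 ± 0.16 in cisplatin against control (edgeR, adjusted p = 8.09e-06) and was 1.51 ± 0.16 higher in YSJZD against cisplatin (edgeR, adjusted p = 0.000153), on the log2 scale. Cbs, which starts the path from homocysteine to cysteine, had 191 ± 29.6 CPM in YSJZD, 46.6 ± 8.07 CPM in cisplatin and 411 ± 79.5 CPM in control kidneys. Mpst and Csad moved in the same directions in the first 2 comparisons. Cdo1, Got1, Got2 and Ethe1 were called in neither of these. For Cdo1 the log2 fold changes were -0.29 (edgeR, adjusted p = 0.524) and -0.28 (0.572). For Ethe1 they were 0.68 (edgeR, adjusted p = 0.079) and -0.63 (0.130). The calls therefore do not show that a route to sulfate changed as a whole.

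Of 20 tested enzymes and mitochondrial carriers of citrate and dicarboxylates, 16 fell and 1 rose in cisplatin against control, 14 were higher and none lower in YSJZD against cisplatin, and 10 were lower and none higher in YSJZD against control, with log2 medians of -1.38, 0.85 and -0.51. Sdha, a subunit of succinate dehydrogenase, had 471 ± 71.5 CPM in YSJZD, 220.0 ± 13.8 CPM in cisplatin and 741 ± 84.2 CPM in control kidneys. Slc25a10, the mitochondrial dicarboxylate carrier, had 381 ± 38.3 CPM in YSJZD, 237 ± 115 CPM in cisplatin and 464 ± 145 CPM in control kidneys, and its call in cisplatin against control (edgeR, -0.97 ± 0.32, adjusted p = 0.0278) was lost without cisplatin replicate 1 (0.0947) or 3 (0.0882) and without control replicate 1 (0.0980) or 2 (0.0819), and also with library totals (0.0830), the 6 compared libraries alone (0.0524), curated records alone (0.0520) and limma on FPKM (0.0540).

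All 6 tested genes of dicarboxylate exchange and sensing fell in cisplatin against control and all 6 were higher in YSJZD against cisplatin, and 3 were lower in YSJZD against control, with log2 medians of -4.32, 3.06 and -0.88. Slc22a6, the organic anion transporter that gives out dicarboxylates supplied by SLC13A3, had 1039.7 ± 166 CPM in YSJZD, 143 ± 44.8 CPM in cisplatin and 2238 ± 152 CPM in control kidneys. It was 2.87 ± 0.25 higher on the log2 scale in YSJZD against cisplatin (edgeR, adjusted p = 6.07e-05) and 1.11 ± 0.23 lower in YSJZD against control (edgeR, adjusted p = 0.00882). A list of 11 tested genes around SLC26A6 was not confined to brush border proteins. Of these, 6 fell and 2 rose in cisplatin against control, and 5 were higher and none lower in YSJZD against cisplatin. In YSJZD against control 3 were lower (4 lower and 1 higher without cisplatin replicate 3). The log2 medians were -0.79, 0.51 and -0.24 in that order. Pdzk1, a scaffold that binds SLC26A6, had 741 ± 143 CPM in YSJZD, 283 ± 59.8 CPM in cisplatin and 1926 ± 163 CPM in control kidneys, and YSJZD kidneys differed from both other groups (edgeR, adjusted p = 0.000759 for YSJZD against cisplatin and 0.00141 for YSJZD against control). Slc9a3, the sodium proton exchanger, had 145 ± 11.0 CPM in YSJZD, 70.2 ± 13.5 CPM in cisplatin and 172 ± 33.8 CPM in control kidneys.

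**Figure D5:**
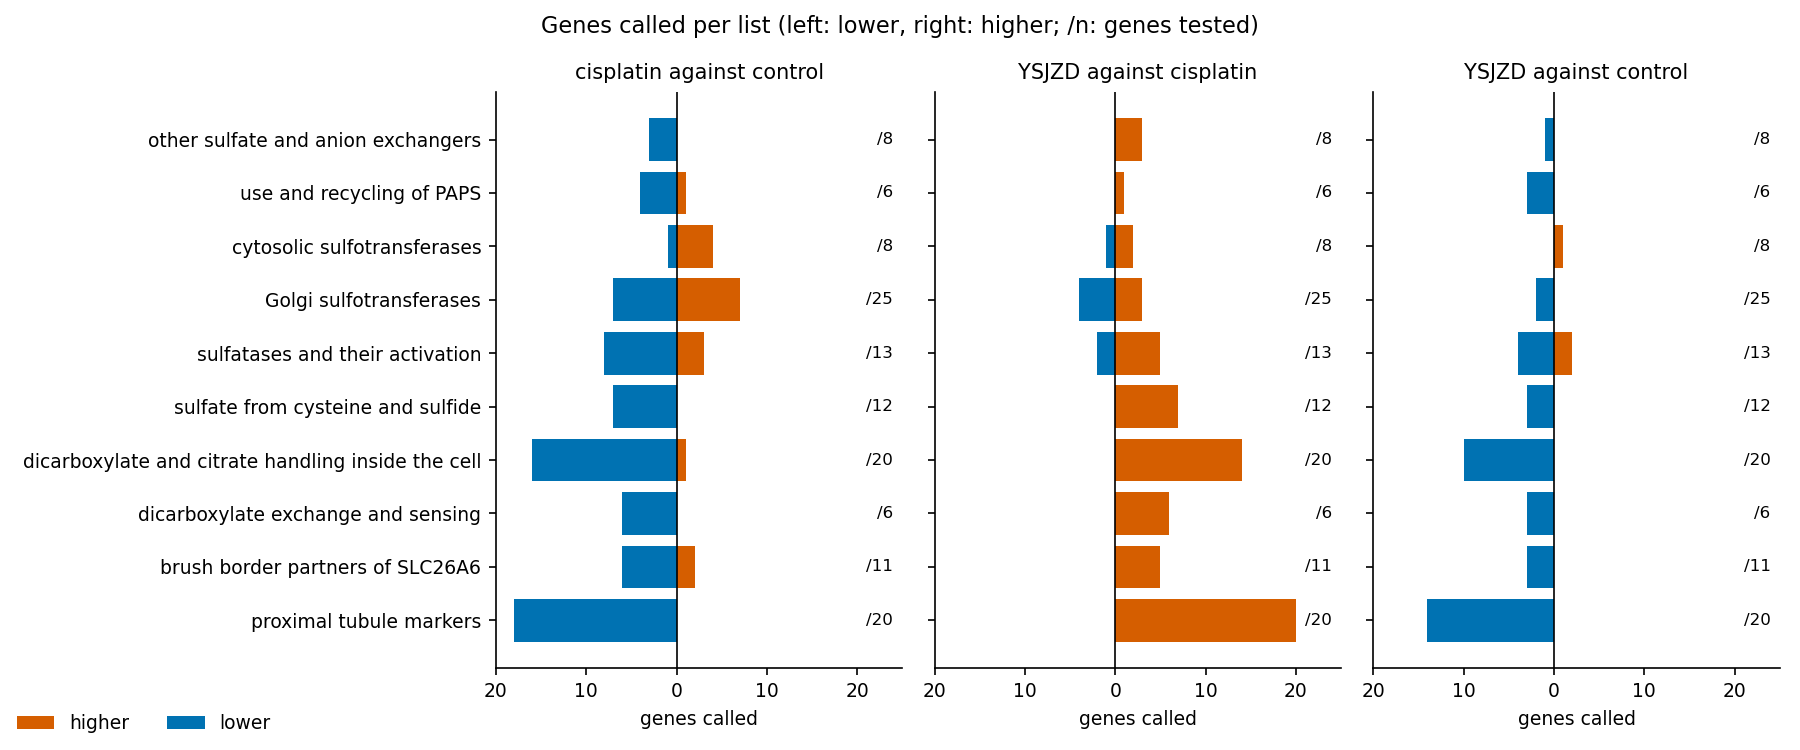
Genes called at an adjusted p under 0.05 in each list, with lower calls to the left and higher calls to the right of 0, and the number of tested genes at the right edge of each panel. The enzymes and carriers of citrate and dicarboxylates have 16 of 20 lower in cisplatin against control and 14 of 20 higher in YSJZD against cisplatin, and the Golgi sulfotransferases have 7 of 25 on each side in the first comparison.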

How the data were processed

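Per the file headers, the deposited table lists 58075 RefSeq transcripts, each with an Entrez gene number and a read count column for each library. The authors' values are expected counts, since the submitters' processing notes name RSEM 1.3.1, with DESeq2 1.4.5. Those notes also name GRCh38, which is human. Neither aligner nor mouse build is stated, and all positions are those of the reference tables. From their values, the deposited second columns were taken to be FPKM. Expected counts were added up by Entrez gene and rounded, for 17963 genes, of which 17847 had a symbol in RefSeq's GRCm38.p6 table. RSEM shares reads between similar transcripts. The main transcripts of members of 1 family, as GENCODE gives them, shared runs of at most 17 bases.

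The 9 libraries entered 1 edgeR 4.0.16 fit (R 4.3.3) with group as the only term. The filter filterByExpr removed 4009 genes. TMM factors were 0.855 to 1.105 and the biological coefficient of variation 0.234. Calls were made at 0.05 after Benjamini-Hochberg adjustment across all 13954 tested genes. The fit was tested on simulated counts. Transcripts were fitted likewise. The members and lists were chosen with earlier results of these data known. All members are named. Examples from a list are taken from its 3 genes with the smallest p in YSJZD against cisplatin, and 7 carriers and partners are named whatever their result. Alternatives used DESeq2 1.42.0, limma 3.58.1 on log2(FPKM + 0.1), limma-voom, other scalings and filters, curated records (NM and NR), a replicate block and each library left out. Same-numbered libraries did not deviate together, so the numbers were not taken as pairs.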

Additional observations from a re-analysis of the deposited data

How the results depend on the processing

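Under 10 other settings and with each of 9 libraries left out, the members called in cisplatin against control numbered 5 throughout, and in YSJZD against cisplatin they numbered 4 or 5. In YSJZD against control DESeq2 called 2 members, Papss1 and Papss2, against 1 otherwise. The genes called in that comparison ranged from 1607 when control replicate 1 was left out to 3138 when cisplatin replicate 3 was, against 2694 with all libraries, and leaving out control replicate 2 gave 1699. The cause was not tested.

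Directions that reversed were all of changes that were not called. With limma on FPKM, YSJZD against control stood at 0.0173 for Slc13a2, 0.0507 for Slc35b2 and 0.0033 for Chst11, and with library totals at 0.0542 for Slc35b2. With curated records alone, cisplatin against control gave Slc35b2 a log2 fold change of 1.10, YSJZD against cisplatin one of -0.30 and YSJZD against control one of 0.80. The Papss2 record NM_001201470.1 ranged from -0.13 without control replicate 1 to 0.26 without control replicate 2 in YSJZD against control.

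Libraries with the same number correlated at -0.20 to 0.09 in their deviations from the group means. With the replicate block the log2 fold change of Slc26a1 in YSJZD against cisplatin was 1.18 (edgeR, adjusted p = 0.0512), a lost call, and no other member's call changed. Slc26a6 rested on 91 to 201 counts a library, the fewest of the members.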
